A study of Mus musculus with 6 samples.

Results

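The 44 mouse collagen chain genes were followed in embryonic hearts that lose the histone deacetylase Hdac3 in cells marked by Isl1. They were taken as all protein-coding genes whose symbol is Col, a number, a and a number among the array rows with 1 gene symbol, and each was read from its brightest row. They made up 44 of 22180 genes, with 11 chains of fibrillar types, 8 of basement membrane types (type IV and the related types XV and XVIII) and 25 of other types. The Hdac3-Isl1KO hearts carried the genotype Hdac3-flox/flox with Isl1-Cre, and the Hdac3-flox/flox hearts carried the same floxed alleles without Cre. Both came from C57BL/6 embryos at embryonic day 9.5, and each of the 3 arrays per group was hybridised with RNA from a pool of dissected hearts. Isl1-Cre recombines in Isl1-expressing cells, such as the second heart field progenitors that build the outflow tract and right ventricle, so only part of a whole heart is targeted. The controls had no Cre, so the Cre allele and the deletion cannot be told apart here. The labels do not say how many hearts or litters went into a pool, so p-values measure the spread between these pools.

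Collagens are secreted proteins in which glycine-rich chains wind around each other into a helix. Fibrillar collagens make the load-bearing fibres of connective tissue, type IV collagen makes the sheet-like network of basement membranes, and the remaining types decorate fibrils, form filaments or span the cell membrane. In the early heart, basement membrane collagen lies under endocardium, epicardium and muscle, and the cushions that become valves fill with a matrix in which fibrillar collagens build up. Several collagens assemble from chains encoded by different genes, so the supply of each partner matters for what can be secreted.

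Values are deposited expression values on the log2 scale, and each difference is the mean of the Hdac3-Isl1KO arrays less that of the Hdac3-flox/flox arrays, tested with limma and adjusted over all 22180 genes. Arrays correlated with each other at 0.989 to 0.995 over these genes. Hdac3 read 9.11, 9.20 and 9.31 in Hdac3-Isl1KO hearts, against 9.67, 9.73 and 9.64 in Hdac3-flox/flox hearts. Its groups did not overlap, and its difference of -0.47 (95% interval -0.66 to -0.29) had a limma adjusted p of 0.0636, past the threshold of 0.05 only with genes below the median row left out, with array weights or with a trended robust prior. Heart muscle transcripts were bright in both groups, with Tnnt2, cardiac troponin T, at 13.14 ± 0.02 in Hdac3-Isl1KO and 13.23 ± 0.023 in Hdac3-flox/flox (SD, n = 3 each). The median array row was 5.66. Of the collagen chain genes, 28 had a mean at or above it and 16 below, where RMA values can understate differences. No detection calls were used here, so a dim value cannot be separated from background, and a whole-heart value cannot tell fewer cells of a type from less RNA per cell.

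The type IV collagen genes Col4a1 and Col4a2 are shown first as sequence, because they sit head to head on mouse chromosome 8 and both read higher in Hdac3-Isl1KO. Their products form the main type IV collagen of embryonic basement membranes. In RefSeq (GRCm38.p6) the annotated starts lie 21 bases apart on opposite strands, that of Col4a1 at 11312826 and that of Col4a2 at 11312805. Each gene as annotated therefore runs through the start of the other, and no gap lies between them. The window of 250 bases before to 50 after the Col4a1 start is chr8:11312777-11313076 on the minus strand, and that of Col4a2 is chr8:11312555-11312854 on the plus strand. The windows share 78 bases, printed in capitals, and each shared stretch is the reverse complement of the other.
Col4a1: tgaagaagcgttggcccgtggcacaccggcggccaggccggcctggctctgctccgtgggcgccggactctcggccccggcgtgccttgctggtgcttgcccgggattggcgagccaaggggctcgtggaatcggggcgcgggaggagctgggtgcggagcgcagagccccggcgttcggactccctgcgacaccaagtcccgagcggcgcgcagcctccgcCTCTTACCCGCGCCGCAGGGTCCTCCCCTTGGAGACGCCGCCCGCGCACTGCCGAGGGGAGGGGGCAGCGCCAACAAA
Col4a2: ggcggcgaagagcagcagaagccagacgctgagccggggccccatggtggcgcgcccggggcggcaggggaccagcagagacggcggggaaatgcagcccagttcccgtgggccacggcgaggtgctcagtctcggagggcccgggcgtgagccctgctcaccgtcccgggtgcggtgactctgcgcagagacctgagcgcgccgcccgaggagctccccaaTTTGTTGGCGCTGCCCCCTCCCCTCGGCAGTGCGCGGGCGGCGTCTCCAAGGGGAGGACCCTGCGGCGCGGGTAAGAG

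The shared stretch was 73.1% G and C, where the median window of protein-coding genes was 56.3%. It held 1 GC box, spelled GGGCGG and searched on both strands, and no whole CCAAT in either orientation. Over all 21263 windows of protein-coding genes, 46.2% held a GGGCGG and 38.2% a CCAAT on either strand. The other head-to-head pair for which both windows were given, Col4a5 and Col4a6 on the X chromosome, had starts 1343 bases apart and windows that did not overlap.

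No collagen chain gene passed the limma threshold of an adjusted p under 0.05, where 0.428% of all genes did. The lowest adjusted p among the 44 was 0.143, for Col2a1. At an unadjusted limma p under 0.05 there were 9 members, 20.5% of the 44, beside 14.5% of all genes. Of these, 7 were higher in Hdac3-Isl1KO (6.57% of all genes): Col2a1, Col4a1, Col4a2, Col6a3, Col9a2, Col11a2 and Col20a1. The other 2 were lower (7.96% of all genes): Col3a1 and Col4a5. Without Hdac3-Isl1KO replicate 3 the count was 5, namely Col2a1, Col4a1, Col4a2, Col4a5 and Col9a2. Groups did not overlap for 11 members, 25% of them beside 21.8% of all genes, with all Hdac3-Isl1KO arrays above in 8 (9.41% of all genes) and below in 3 (12.4% of all genes). Over the family 21 differences were above 0 and 23 below, and the median was -0.0046, beside 9.4e-05 for all genes. The family median thus lay close to that of all genes, with chains on either side.

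The intervals describe the precision of the measured whole-heart values. Each is a 95% interval for 1 gene, not adjusted for the 44 read together. They do not allow for RMA values that understate differences, as can happen for the 16 members below the median row. Nor do they bound a change within the targeted part of the heart. No 95% interval of a member reached beyond 0.58 on the log2 scale, a 1.49-fold difference, and 41 of the 44 lay wholly within 0.5 (1.41-fold). The other 3 were those of Col2a1, Col6a3 and Col11a2. The half-width of the intervals had a median of 0.20 and ran from 0.15 to 0.42. The smallest difference that passed the limma threshold among all genes was 0.44, larger than any measured in a collagen gene.

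**Figure D1:**
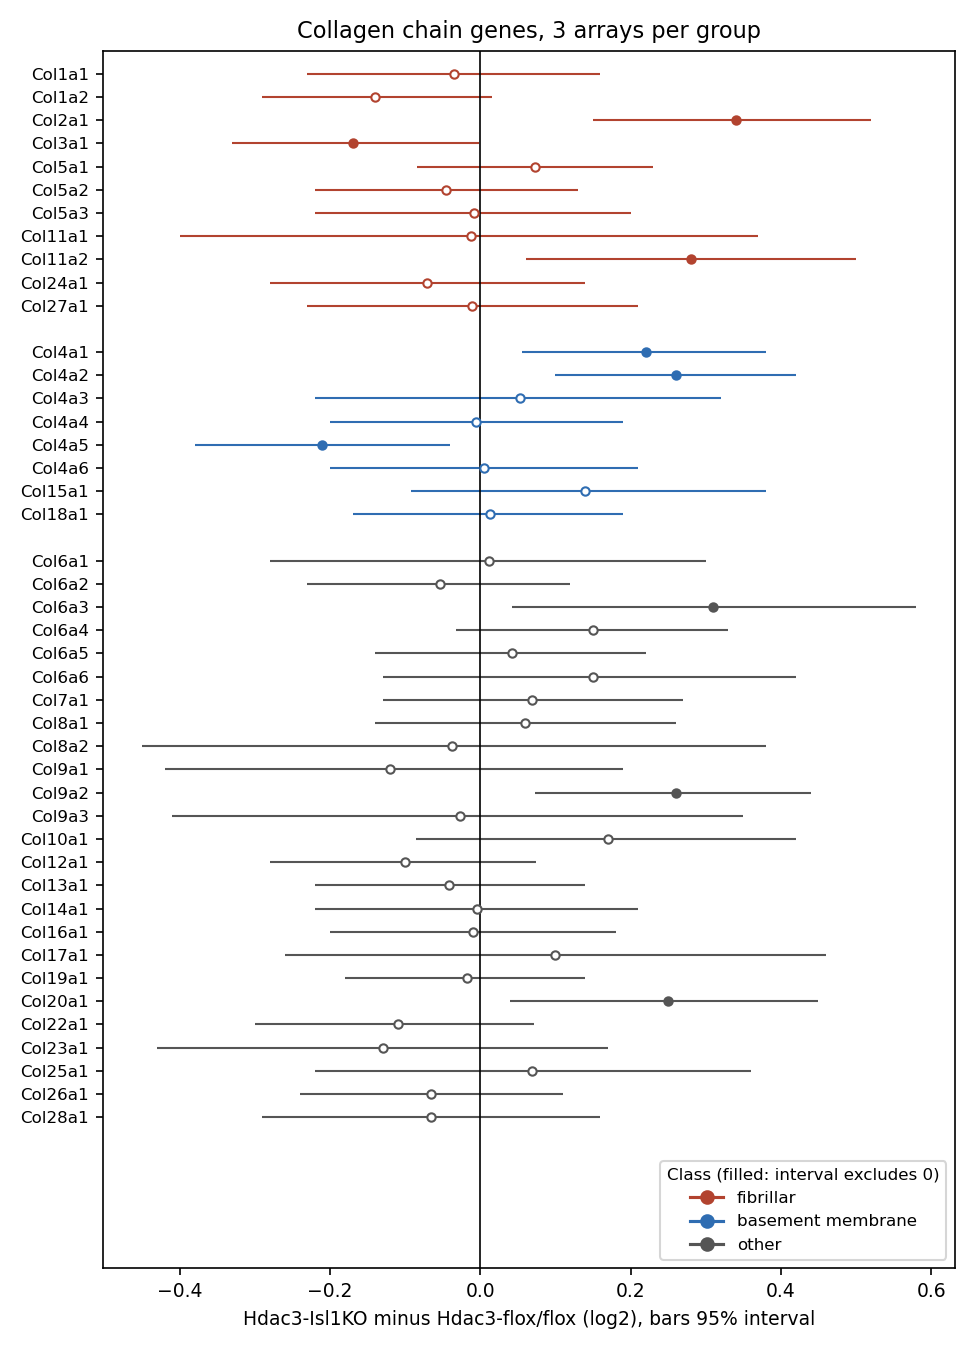
Difference of each collagen chain gene, as log2 in Hdac3-Isl1KO less log2 in Hdac3-flox/flox, with 95% intervals from limma (3 arrays per group), by class and type number; filled points have an interval that excludes 0. The filled points above 0 are Col2a1, Col11a2, Col4a1, Col4a2, Col6a3, Col9a2 and Col20a1, those below 0 are Col3a1 and Col4a5, and the other 35 intervals cross 0.

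Among the 11 fibrillar genes 3 differences were above 0 and 8 below, with a median of -0.012 that moved to -0.062 without Hdac3-Isl1KO replicate 1, to -0.055 without replicate 2 and to 0.013 without replicate 3 of that group. Without Hdac3-flox/flox replicate 1, 2 or 3 it was -0.0025, -0.038 or -0.0082. Groups did not overlap for 5 of the 11 (45.5%, beside 21.8% of all genes), 3 above and 2 below. An unadjusted limma p under 0.05 was found for 3 (27.3%, beside 14.5% of all genes). Col2a1 and Col11a2 had the highest differences of this class, and Col3a1 and Col1a2 the lowest.

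Col2a1 encodes the chain of type II collagen, the main fibril of cartilage, which embryos also make in the notochord and in other early tissues. It read 8.99, 8.85 and 8.80 in Hdac3-Isl1KO, against 8.49, 8.60 and 8.55 in Hdac3-flox/flox. Every Hdac3-Isl1KO array lay above every control array. The difference was 0.34 (95% interval 0.15 to 0.52), or 1.26-fold higher, with a limma unadjusted p of 0.00342 and an adjusted p of 0.143. This was the only member called under any alternative, with a limma adjusted p of 0.0362 when genes below the median row were left out (4.94% of those genes called) and of 0.0123 with a trended robust prior (3.9% of all genes called). No member was called with quantile normalization (0.658% of all genes called) or with array weights (1.1% of all genes called).

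Type II fibrils in cartilage are built together with type XI collagen and carry type IX collagen on their surface. Col11a2, a type XI chain gene, read 5.76, 5.92 and 6.00 in Hdac3-Isl1KO, against 5.50, 5.70 and 5.65 in Hdac3-flox/flox, with no overlap. Its difference was 0.28 (0.061 to 0.50, limma adjusted p = 0.253). Its partner Col11a1 read 5.73, 5.50 and 5.29 in Hdac3-Isl1KO, against 5.45, 5.29 and 5.81 in Hdac3-flox/flox. Those groups overlapped throughout, and the difference of -0.012 (-0.40 to 0.37) changed sign with arrays left out.

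Col9a2, for a type IX chain, read 7.54, 7.44 and 7.44 in Hdac3-Isl1KO, against 7.16, 7.17 and 7.33 in Hdac3-flox/flox. The groups were apart, by 0.26 (0.073 to 0.44, limma adjusted p = 0.223). The other type IX chain genes, Col9a1 (-0.12) and Col9a3 (-0.027), had intervals from -0.42 to 0.19 and from -0.41 to 0.35. Thus 3 of the 6 genes of types II, IX and XI were higher in every Hdac3-Isl1KO array (9.41% of all genes were). They were 1 from each type, and the other 3 had differences below 0. These types were put side by side with their values known, so the count restates the single genes and is not a further result. The value of Col9a2 minus Col9a1 within an array was 1.46, 1.66 and 1.77 in Hdac3-Isl1KO, against 1.37, 1.10 and 1.31 in Hdac3-flox/flox, so these partners differed unequally between the groups. Such within-array values are given as descriptions, since the pairs were picked after their values were seen.

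Markers of notochord and cartilage were looked at beside these genes. Of 9 tested, 5 were above 0 and 4 below, with a median difference of 0.0045 and 0 with an unadjusted limma p under 0.05. The mean of the list was 6.16 to 6.21 over Hdac3-Isl1KO arrays and 6.19 to 6.27 over Hdac3-flox/flox arrays. Sox9, the transcription factor that drives Col2a1 in cartilage, averaged 8.12 ± 0.066 in Hdac3-Isl1KO and 8.04 ± 0.046 in Hdac3-flox/flox (SD, n = 3 each), a difference of 0.08 (-0.085 to 0.24). Acan, the cartilage proteoglycan aggrecan, differed by 0.046, Matn1, the cartilage matrix protein matrilin, by -0.32 (limma adjusted p = 0.461), and the notochord genes Noto and Shh by 0.17 and 0.063. Of these 9 markers 5 were dimmer than the median row, and the further listed marker T had no row with a single symbol. The part of notochord and cartilage cells in the Col2a1, Col9a2 and Col11a2 values was not tested.

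Type I collagen is the most abundant fibre of connective tissue and is made from the products of Col1a1 and Col1a2. Col1a1 read 7.49, 7.53 and 7.29 in Hdac3-Isl1KO, against 7.50, 7.47 and 7.45 in Hdac3-flox/flox. Its groups overlapped, and the difference of -0.035 (-0.23 to 0.16) turned sign when an array was left out. Col1a2 read 7.30, 7.24 and 7.26 in Hdac3-Isl1KO, against 7.41, 7.36 and 7.45 in Hdac3-flox/flox. All Hdac3-Isl1KO arrays were the lower ones, by -0.14 (-0.29 to 0.016, limma adjusted p = 0.397), and a dimmer row of Col1a2 differed by -0.20.

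Type III collagen is found with type I in stretchable tissues such as vessel walls. Col3a1 read 7.81, 7.76 and 7.84 in Hdac3-Isl1KO, against 7.94, 8.05 and 7.92 in Hdac3-flox/flox. The groups were apart, by -0.17 (-0.33 to -0.0022, limma unadjusted p = 0.0478, adjusted p = 0.339). The value of Col2a1 minus Col3a1 within an array was 1.18, 1.09 and 0.96 in Hdac3-Isl1KO, against 0.54, 0.55 and 0.63 in Hdac3-flox/flox. The balance between these fibrillar chains was 0.50 higher on the log2 scale in Hdac3-Isl1KO, with no overlap. As the pair joins the highest and the lowest difference of the class, this restates those differences and is not a further result.

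Type V chains sit inside type I fibrils and set their width. Col5a1 read 7.35, 7.32 and 7.44 in Hdac3-Isl1KO, against 7.27, 7.31 and 7.30 in Hdac3-flox/flox. Although all Hdac3-Isl1KO arrays were the higher ones, the difference was small, 0.073 (-0.084 to 0.23), and 0.13 in a dimmer row. Col5a2, which lies next to Col3a1 on chromosome 1 with no protein-coding gene between them, read 6.92, 6.87 and 6.81 in Hdac3-Isl1KO, against 7.00, 6.93 and 6.82 in Hdac3-flox/flox. Col5a3 read 6.03, 6.30 and 6.10 in Hdac3-Isl1KO, against 6.20, 6.10 and 6.15 in Hdac3-flox/flox. Both sets overlapped, with differences of -0.045 and -0.0088. The minor fibrillar genes Col24a1 and Col27a1 differed by -0.071 and -0.011, and their groups overlapped as well.

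**Figure D2:**
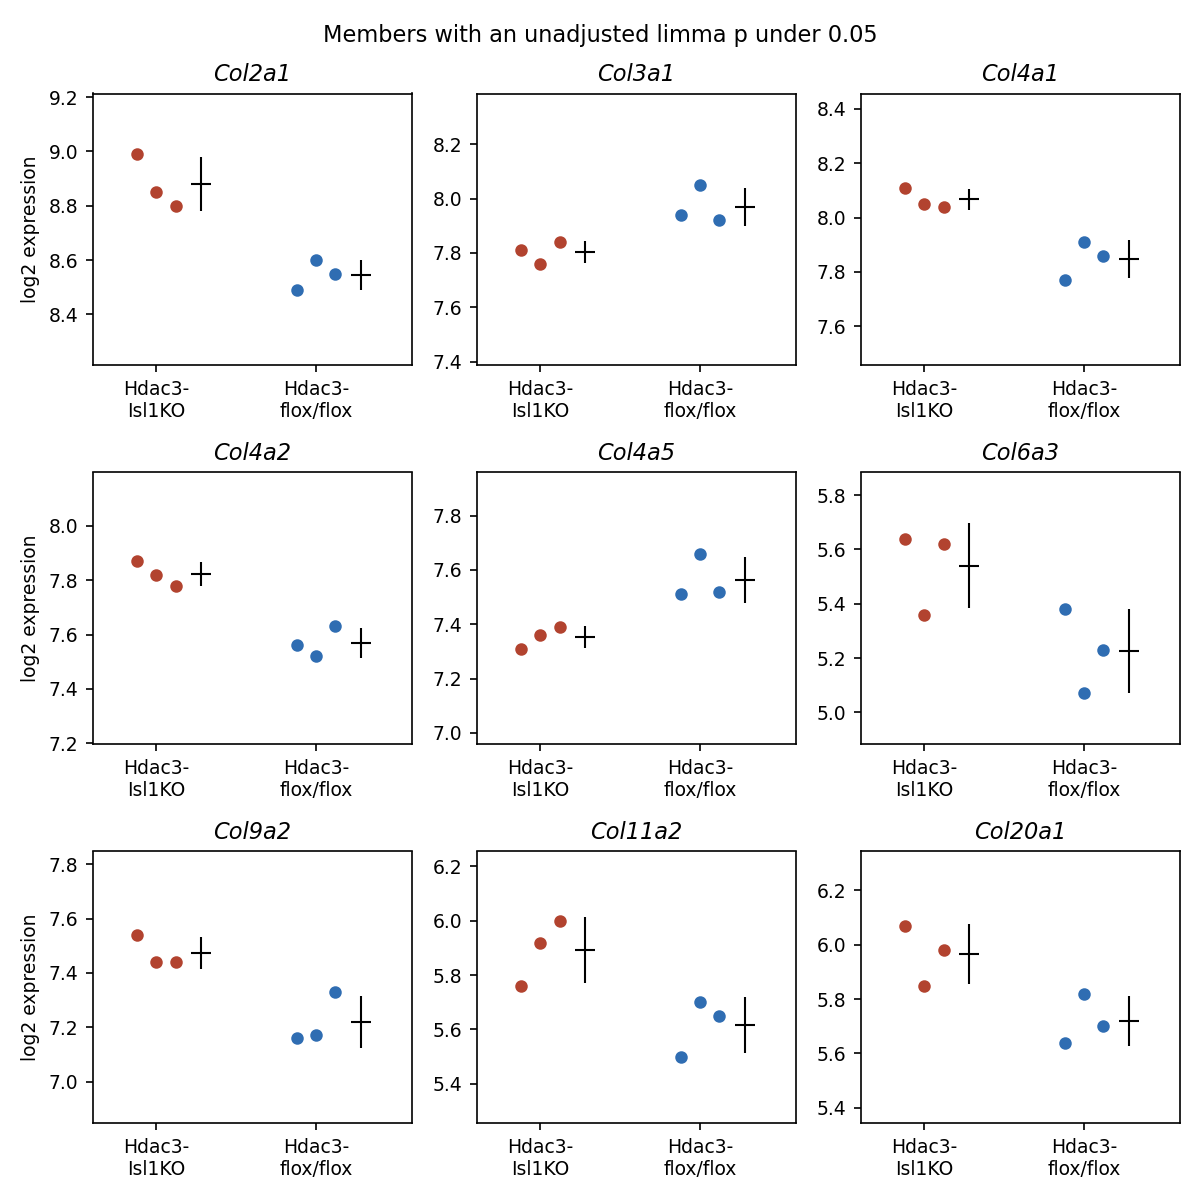
Log2 expression in each array for the 9 members with an unadjusted limma p under 0.05, with Hdac3-Isl1KO (red) left of Hdac3-flox/flox (blue); black marks are the mean and SD (n = 3 each), and every panel spans the same log2 range. The groups are apart in every panel but that of Col6a3, where the lowest Hdac3-Isl1KO value, 5.36, lies under the highest Hdac3-flox/flox value, 5.38.

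Of the 8 basement membrane collagen genes 6 had differences above 0 and 2 below, with a median of 0.033, and of 0.029 for the type IV chains alone. Leaving out Hdac3-flox/flox replicate 2 moved the median to 0.0011 and leaving out replicate 3 of that group moved it to 0.089. Without Hdac3-Isl1KO replicate 1 or 2 it was 0.055 or 0.065. Groups did not overlap for 3 of the 8 (37.5%, beside 21.8% of all genes), 2 above and 1 below. The same 3 had an unadjusted limma p under 0.05 (37.5%, beside 14.5% of all genes).

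Col4a1 read 8.11, 8.05 and 8.04 in Hdac3-Isl1KO, against 7.77, 7.91 and 7.86 in Hdac3-flox/flox. Col4a2 read 7.87, 7.82 and 7.78 in Hdac3-Isl1KO, against 7.56, 7.52 and 7.63 in Hdac3-flox/flox. For both genes every Hdac3-Isl1KO array was above every control array. The differences were 0.22 (0.056 to 0.38, limma adjusted p = 0.237) for Col4a1 and 0.26 (0.10 to 0.42, limma adjusted p = 0.184) for Col4a2. The value of Col4a1 minus Col4a2 within an array averaged 0.24 ± 0.018 in Hdac3-Isl1KO and 0.28 ± 0.10 in Hdac3-flox/flox (SD, n = 3 each). Those groups overlapped. These genes share the start region printed above, and the part of that region in their differences was not tested. With any array left out, Col4a1 stayed between 0.18 and 0.25 and Col4a2 between 0.23 and 0.29.

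The pair Col4a5 and Col4a6 encodes chains that form a separate type IV network in a narrower set of tissues. Col4a5 read 7.31, 7.36 and 7.39 in Hdac3-Isl1KO, against 7.51, 7.66 and 7.52 in Hdac3-flox/flox. Here all Hdac3-Isl1KO arrays were the lower ones, by -0.21 (-0.38 to -0.04, limma adjusted p = 0.26), the largest negative difference among the 44. Col4a6 read 6.46, 6.54 and 6.40 in Hdac3-Isl1KO, against 6.48, 6.33 and 6.57 in Hdac3-flox/flox, with a difference of 0.0054 (-0.20 to 0.21). The value of Col4a1 minus Col4a5 within an array was 0.80, 0.69 and 0.65 in Hdac3-Isl1KO, against 0.26, 0.25 and 0.34 in Hdac3-flox/flox. That balance was 0.43 higher in Hdac3-Isl1KO, which restates the opposite differences of these genes. Both Col4a5 and Col4a6 lie on the X chromosome, and transcripts of both sexes were read in every pool. Xist, made from the inactive X chromosome of females, averaged 9.86 ± 0.089 in Hdac3-Isl1KO and 9.96 ± 0.0086 in Hdac3-flox/flox (SD, n = 3 each), with all Hdac3-Isl1KO arrays the lower ones. The Y-linked gene Eif2s3y differed by -0.23 (-0.47 to 0.015), again with every Hdac3-Isl1KO array below, while the groups of the Y-linked genes Kdm5d (-0.06) and Uty (-0.16) overlapped. The part of sex make-up in the Col4a5 result was not tested.

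Col4a3 and Col4a4, which with Col4a5 make the type IV network of the kidney filter, were dimmer than the median row. Col4a3 read 5.42, 5.09 and 5.33 in Hdac3-Isl1KO, against 5.24, 5.08 and 5.35 in Hdac3-flox/flox, and Col4a4 read 5.09, 5.23 and 5.29 in Hdac3-Isl1KO, against 5.25, 5.12 and 5.25 in Hdac3-flox/flox. Their groups overlapped, with differences of 0.053 and -0.0054. Type XV and type XVIII collagens tie basement membranes to the tissue below, and the end fragment of type XVIII is endostatin, an inhibitor of vessel growth. Col15a1 read 5.45, 5.31 and 5.65 in Hdac3-Isl1KO, against 5.26, 5.38 and 5.35 in Hdac3-flox/flox, a difference of 0.14 (-0.092 to 0.38). Col18a1 read 7.31, 7.48 and 7.43 in Hdac3-Isl1KO, against 7.33, 7.41 and 7.44 in Hdac3-flox/flox, and the difference was 0.013 (-0.17 to 0.19).

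The genes whose products lie beside type IV collagen in basement membranes were measured as a list of 12. Of these, 1 rose past the adjusted threshold (0.23% of all genes did), Lama1, the laminin chain gene of early embryonic basement membranes. It read 7.26, 7.15 and 7.14 in Hdac3-Isl1KO, against 6.34, 6.34 and 6.21 in Hdac3-flox/flox, a difference of 0.89 (0.71 to 1.06, limma adjusted p = 0.0107). With 1 array left out that call was kept only without Hdac3-flox/flox replicate 2, and the difference ran from 0.84 to 0.91. Calls over all genes then numbered 2 to 25, beside 95 with every array. Of the 12 genes 9 had differences below 0, and the median with Lama1 included was -0.049. Sparc, which binds collagen and calcium, averaged 10.02 ± 0.063 in Hdac3-Isl1KO and 10.26 ± 0.011 in Hdac3-flox/flox (SD, n = 3 each), a difference of -0.24 (limma adjusted p = 0.192). Lamb2, the laminin beta chain gene of vessels and muscle, differed by -0.27 (limma adjusted p = 0.205), and Hspg2, for the proteoglycan perlecan, by 0.14 (limma adjusted p = 0.353). The core genes Lamb1, Lamc1, Nid1 and Nid2 differed by -0.015, 0.077, -0.07 and -0.026, and a dimmer row of Nid1 by 0.18.

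Parietal endoderm, the extraembryonic layer that lays down Reichert's membrane, makes large amounts of type IV collagen and of Lama1, so its markers are given here. Of 11 listed genes, 6 were above 0 and 5 below, with a median of 0.077. Past the adjusted threshold 2 rose (0.23% of all genes did), Lama1 and the proteoglycan gene Srgn (0.82, limma adjusted p = 0.0204). The list mean was 8.23 to 8.27 over Hdac3-Isl1KO arrays and 8.09 to 8.13 over Hdac3-flox/flox arrays. That mean includes Lama1 and Srgn, and the next highest difference of the list was 0.18, for Stra6. Sparc and Plat, also made by that layer, differed by -0.24 and -0.28 (limma adjusted p = 0.192 and 0.276), and 5 of the 11 genes are also among the basement membrane partners. Markers of yolk sac and hepatic endoderm were above 0 in 9 of 9 genes. Of these, 4 had an unadjusted limma p under 0.05 (6.57% of all genes were higher at that p). Fgb, for a fibrinogen chain and dimmer than the median row, rose (0.93, limma adjusted p = 0.0204). This list had means of 5.97 to 6.01 in Hdac3-Isl1KO and 5.41 to 5.68 in Hdac3-flox/flox. Markers of pharyngeal endoderm and epithelium were above 0 in 9 of 10, 7 of them with an unadjusted limma p under 0.05 (6.57% of all genes were higher at that p) and 0 past the adjusted threshold, with list means of 5.98 to 6.03 in Hdac3-Isl1KO and 5.68 to 5.72 in Hdac3-flox/flox. Trophoblast markers, of which 6 of 10 were tested, were above 0 in 5, with list means of 5.16 to 5.31 in Hdac3-Isl1KO and 5.05 to 5.20 in Hdac3-flox/flox. The part of these cell types in the Col4a1 and Col4a2 values was not tested.

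Type VI collagen makes beaded filaments around cells from the products of Col6a1, Col6a2 and Col6a3. Col6a1 read 6.85, 7.12 and 7.31 in Hdac3-Isl1KO, against 7.16, 6.98 and 7.11 in Hdac3-flox/flox. Col6a2, its neighbour on chromosome 10, read 6.94, 7.00 and 7.06 in Hdac3-Isl1KO, against 7.11, 6.98 and 7.08 in Hdac3-flox/flox. Both overlapped, with differences of 0.012 (-0.28 to 0.30) and -0.054 (-0.23 to 0.12). Col6a3 read 5.64, 5.36 and 5.62 in Hdac3-Isl1KO, against 5.38, 5.07 and 5.23 in Hdac3-flox/flox, a difference of 0.31 (0.042 to 0.58, limma adjusted p = 0.285). It was dimmer than the median row and had the widest reach of any interval in the family. The value of Col6a2 minus Col6a3 within an array was 1.30, 1.64 and 1.45 in Hdac3-Isl1KO, against 1.73, 1.90 and 1.85 in Hdac3-flox/flox, so these partners differed unequally by -0.36.

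The later-found type VI genes Col6a4, Col6a5 and Col6a6 lie side by side on chromosome 9. Col6a4 read 4.73, 4.82 and 4.80 in Hdac3-Isl1KO, against 4.53, 4.70 and 4.67 in Hdac3-flox/flox. Its groups were apart by 0.15 (-0.032 to 0.33, limma adjusted p = 0.433), at values well under the median row. Col6a5 read 4.30, 4.19 and 4.20 in Hdac3-Isl1KO, against 4.26, 4.21 and 4.09 in Hdac3-flox/flox, and Col6a6 read 5.79, 5.62 and 5.78 in Hdac3-Isl1KO, against 5.81, 5.41 and 5.53 in Hdac3-flox/flox. Those groups overlapped, with differences of 0.042 and 0.15.

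The fibril-associated collagens, which coat fibrils and link them to other matrix, held 9 genes, with 2 above 0, 7 below and a median of -0.017. The 2 above were Col9a2 and Col20a1. Col20a1, a little-studied member of the group, read 6.07, 5.85 and 5.98 in Hdac3-Isl1KO, against 5.64, 5.82 and 5.70 in Hdac3-flox/flox. Its groups were apart by 0.25 (0.039 to 0.45, limma adjusted p = 0.275). Col12a1 and Col14a1, the fibril-coating chains of tendon and other dense tissues, differed by -0.10 (-0.28 to 0.074) and -0.0038, Col16a1 and Col19a1 by -0.01 and -0.017, and Col22a1, of muscle-tendon junctions, by -0.11 (-0.30 to 0.072). The groups of these 5 overlapped.

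The remaining kinds of collagen showed no separation of the groups in any gene. The transmembrane collagens were Col13a1 (-0.041), found at nerve-muscle junctions, Col17a1 (0.10), of the anchoring plaques of skin, Col23a1 (-0.13) and Col25a1 (0.069). The short-chain network collagens were Col8a1 (0.06) and Col8a2 (-0.037), of vessels and the cornea, and Col10a1 (0.17), of growth cartilage. Col7a1, which anchors skin to its underlying tissue, differed by 0.069, Col26a1 by -0.066 and Col28a1 by -0.065. Over the whole class of 25 other genes 12 differences were above 0 and 13 below, with a median of -0.0038. Groups did not overlap for 3, Col6a4, Col9a2 and Col20a1 (12% of them, beside 21.8% of all genes). An unadjusted limma p under 0.05 was found for 3, Col6a3, Col9a2 and Col20a1 (12%, beside 14.5% of all genes).

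The enzymes, receptors and proteases that collagens depend on were then counted from 5 lists, including the basement membrane partners above. Of 69 genes 64 were tested, and Lama1 was the only one past the limma threshold (0.23% of all genes were called higher and 0.198% lower). Of the 64, 52 had differences below 0 and 12 above, or 18.8% above where all genes had 50%, and the median was -0.073. An unadjusted limma p under 0.05 was found for 18 (28.1%, beside 14.5% of all genes), 16 lower and 2 higher, and groups did not overlap for 25 (39.1%, beside 21.8%). The companions thus lay below 0 more often than the collagen chains themselves, of which 23 of 44 did. That contrast is a description without a test, and the companions were not matched for level with the chains or with all genes. At or above the median row were 52 of the 64 companions, 28 of the 44 chains and 12480 of 22180 genes. Those 12480 genes had a median difference of -0.022, beside 9.4e-05 for all genes. The part of level in the share of companions below 0 was not tested.

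**Figure D3:**
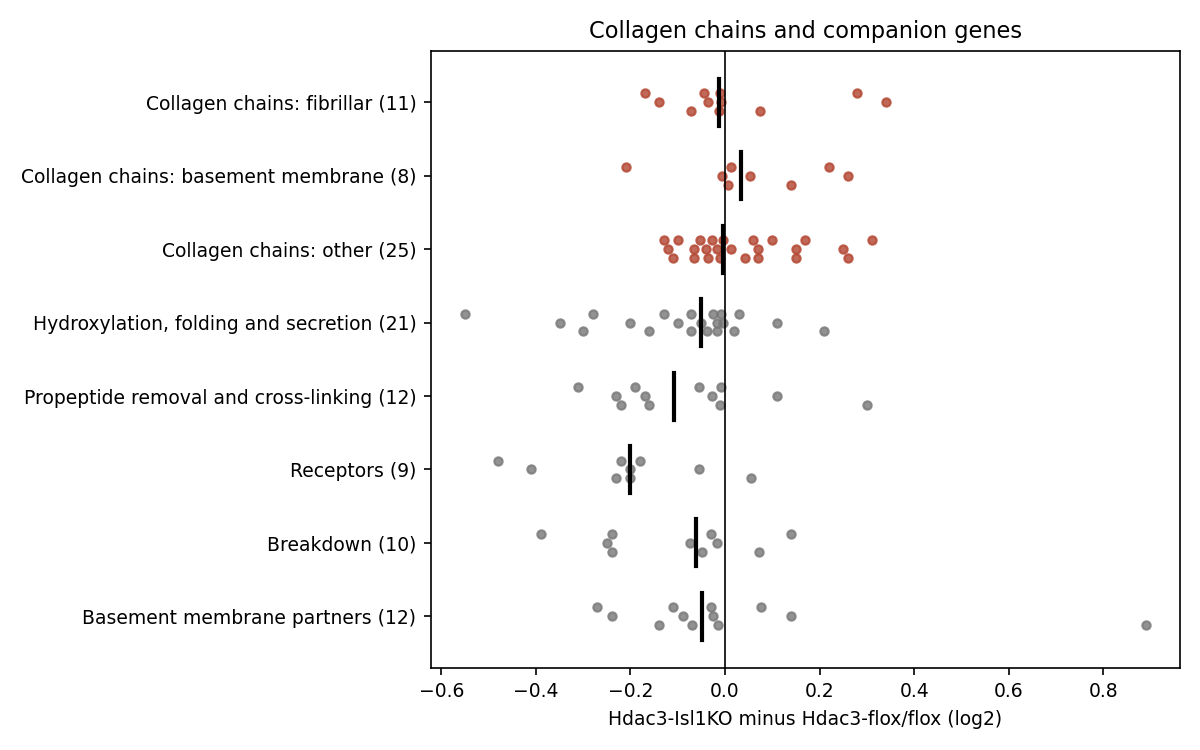
Differences of the collagen chain genes by class (red) and of companion genes by list (grey), as log2 in Hdac3-Isl1KO less log2 in Hdac3-flox/flox; each point is a gene, black bars are medians and numbers in brackets count the genes. The collagen classes have medians of -0.012, 0.033 and -0.0038, the receptors lie lowest at -0.20, and the point at 0.89 is Lama1.

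Genes for hydroxylation, folding and secretion of collagen chains had 17 of 21 differences below 0 and a median of -0.05. P4ha3, a subunit of the prolyl hydroxylase that stabilises the helix, read 6.28, 6.21 and 6.13 in Hdac3-Isl1KO, against 6.84, 6.49 and 6.93 in Hdac3-flox/flox. All Hdac3-Isl1KO arrays were the lower ones, by -0.55 (-0.84 to -0.25, limma adjusted p = 0.141). Crtap, part of the complex that hydroxylates a single proline of fibrillar chains, read 9.60, 9.51 and 9.54 in Hdac3-Isl1KO, against 9.82, 9.91 and 9.76 in Hdac3-flox/flox, lower by -0.28 (limma adjusted p = 0.17). Fkbp14, a prolyl isomerase of the endoplasmic reticulum, and Colgalt2, a collagen galactosyltransferase, differed by -0.30 and -0.35 (limma adjusted p = 0.173 and 0.294). The more brightly read genes P4hb, Serpinh1 (the collagen chaperone Hsp47) and Ppib showed little difference, at -0.018, -0.016 and 0.019.

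Receptor genes had 8 of 9 differences below 0, with a median of -0.20, and 5 had an unadjusted limma p under 0.05, all lower (7.96% of all genes were). Gp6, the collagen receptor of platelets, read 5.40, 5.50 and 5.53 in Hdac3-Isl1KO, against 5.81, 5.94 and 6.12 in Hdac3-flox/flox. The groups were apart, by -0.48 (-0.71 to -0.26, limma adjusted p = 0.103). Itga2 and Itga1, integrin subunits that bind collagen together with Itgb1, differed by -0.41 and -0.20, and Itgb1 by -0.18 (limma adjusted p from 0.216 to 0.333). Ddr1, a receptor tyrosine kinase activated by collagen, differed by -0.23 (limma adjusted p = 0.235), and by -0.048 in a dimmer row.

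Genes for propeptide removal and cross-linking had 10 of 12 differences below 0 and a median of -0.11. Loxl3, of the lysyl oxidase family that cross-links fibres, read 6.94, 6.75 and 6.88 in Hdac3-Isl1KO, against 7.20, 7.17 and 7.14 in Hdac3-flox/flox. Its difference was -0.31 (limma adjusted p = 0.158), while its relative Loxl4 differed in the other direction, by 0.30 (limma adjusted p = 0.308). Bmp1, which trims the ends of fibrillar chains, and Pcolce, which enhances that step, differed by -0.19 and -0.16 (limma adjusted p = 0.31 and 0.353).

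In the list for breakdown 8 of 10 differences were below 0, with a median of -0.062. Timp3, a matrix-bound inhibitor of metalloproteinases, read 7.86, 8.03 and 7.99 in Hdac3-Isl1KO, against 8.34, 8.42 and 8.29 in Hdac3-flox/flox. It was lower in every Hdac3-Isl1KO array, by -0.39 (-0.57 to -0.21, limma adjusted p = 0.101). Mmp14, a membrane-bound collagenase, differed by -0.25 (limma adjusted p = 0.244), and Mmp16 and the collagen-degrading protease gene Ctsk both by -0.24 (limma adjusted p = 0.47 and 0.512).

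Cells that make or meet collagen in the heart were followed by their own markers beside these values. Epicardial and proepicardial markers were below 0 in 9 of 10, with list means of 7.17 to 7.25 in Hdac3-Isl1KO and 7.60 to 7.66 in Hdac3-flox/flox. Past the adjusted threshold 3 of them fell (0.198% of all genes did). These were Upk3b, Upk1b and Aldh1a1, with differences from -0.94 to -0.72 and limma adjusted p from 0.00895 to 0.0268. Aldh1a2 and Sema3d differed by -0.66 and -0.36 (limma adjusted p = 0.101 and 0.194). The differences of Wt1, Tbx18, Tcf21, Msln and Lrrn4 were smaller, from -0.19 to 0.0014 (limma adjusted p from 0.35 to 0.997). Cardiomyocyte markers were below 0 in 8 of 10, with list means of 11.46 to 11.50 in Hdac3-Isl1KO and 11.57 to 11.58 in Hdac3-flox/flox. All Hdac3-Isl1KO arrays were below in those 8 (12.4% of all genes) and above in 1 (9.41% of all genes), and 0 passed the adjusted threshold. Cushion mesenchyme markers were above 0 in 5 of 9, with list means of 8.58 to 8.60 in Hdac3-Isl1KO and 8.53 to 8.64 in Hdac3-flox/flox. Endothelial and endocardial markers were below 0 in 7 of 10, at 8.79 to 8.81 in Hdac3-Isl1KO and 8.82 to 8.88 in Hdac3-flox/flox. Neural crest markers were above 0 in 5 of 7, at 5.53 to 5.65 in Hdac3-Isl1KO and 5.37 to 5.69 in Hdac3-flox/flox, and primitive erythroid markers in 3 of 6, at 8.74 to 8.84 in Hdac3-Isl1KO and 8.71 to 8.76 in Hdac3-flox/flox. The part of these cell types in the lower values of Col3a1, Col1a2, Col4a5 and the companion genes was not tested.

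Across the 13 alternative ways of processing the arrays (12 for genes dimmer than the median row), 23 of the 44 members kept the sign of their difference. These included all 9 with an unadjusted limma p under 0.05. Col2a1 ranged from 0.28 to 0.38, Col4a1 from 0.18 to 0.26, Col4a2 from 0.23 to 0.30 and Col9a2 from 0.22 to 0.31. On the lower side Col4a5 ranged from -0.24 to -0.16 and Col3a1 from -0.19 to -0.12. The signs of the other 21 members turned under at least 1 alternative, Col1a1, Col6a1, Col11a1 and Col18a1 among them.

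**Figure D4:**
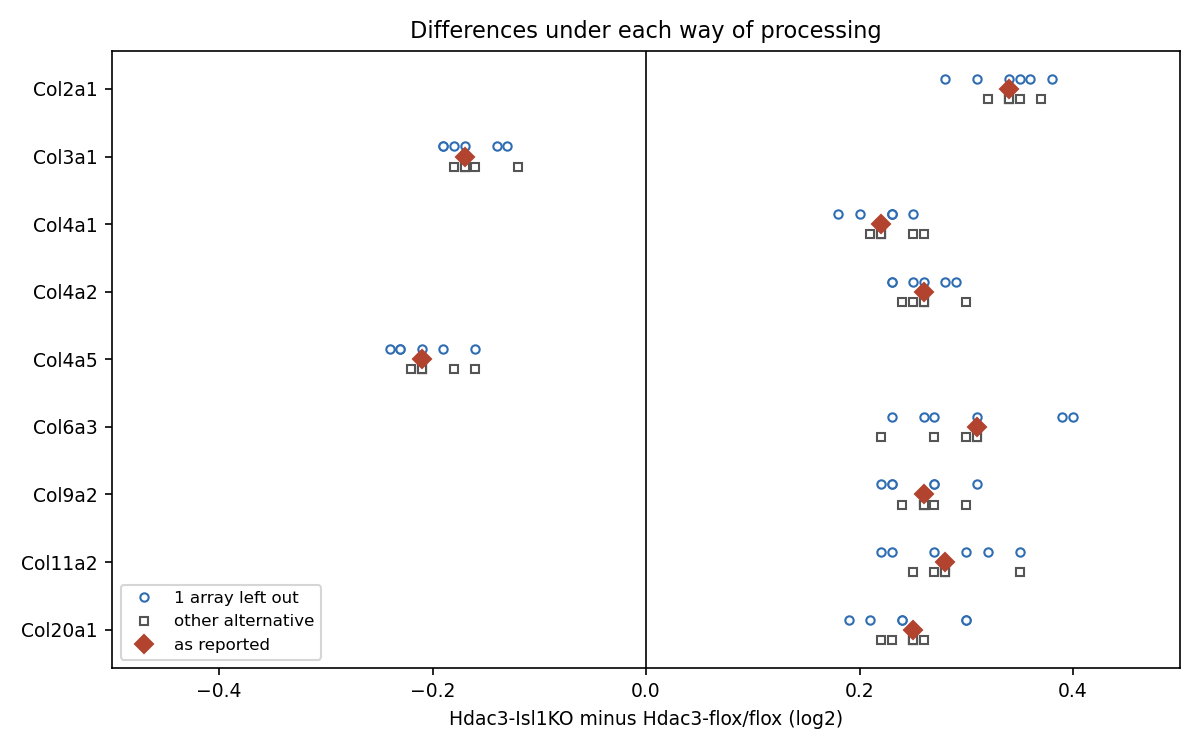
Difference of the 9 members with an unadjusted limma p under 0.05, as log2 in Hdac3-Isl1KO less log2 in Hdac3-flox/flox, as reported (red), with 1 array left out (blue circles) and under the other alternatives (grey squares). Every point of a gene lies on the same side of 0, and Col6a3 has the widest spread, from 0.22 to 0.40.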

How the data were processed

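RNA from pooled hearts was labelled with the GeneChip WT PLUS kit for Affymetrix arrays, per the labels' protocols. The authors deposited log2 expression values, made with oligo and RMA per the submitters' processing notes. Tool versions and the build used to design the probes were not stated there. Of 41345 rows, 23521 had 1 gene symbol in the platform annotation and gave 22180 genes. By gene number, 23328 of those rows matched the RefSeq gene table (GRCm38.p6). No filter on dim genes was applied. The two-sided limma test (version 3.58.1, R 4.3.3, eBayes with a constant prior) ran over all genes, with Benjamini-Hochberg adjustment at 0.05. Printed errors are the SD of 3 arrays or the fitted 95% interval. The number of arrays limits the precision. The steps were tested on simulated data of 22180 genes for the same comparison, with 200 genes raised and gene spreads shuffled across levels. Of genes raised by 1 on the log2 scale 80.5% were recovered, and of those raised by 0.5, 14%. These shares hold for those settings and are not recovery rates for the deposited arrays. Plots used matplotlib 3.10.9 in Python 3.11.15. Sequences are from RefSeq, where 35 of the 44 genes had a start window.

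The members, the companion lists and the marker lists were chosen with earlier results of these data known, so no list is independent evidence. Hdac3, members of types I to VI, XI, XV and XVIII, the 10 brightest members and those with an unadjusted p under 0.05 have values in every array, and up to 4 companion genes per list with the smallest p are named. Genes added as context (other members, core partners and markers) were named after their values were seen. Of the listed genes, 5 companions and 10 markers had no row with a single symbol and were not tested. Results were recomputed with the replicate number as a block, with single arrays left out, with quantile normalization, median centring, leaving out genes below the median row, averaging a gene's rows, a robust trended prior and array weights.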

Additional observations from a re-analysis of the deposited data

How the results depend on the processing

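The count of 0 collagen chain genes past the threshold was 1 without genes below the median row and 1 with the robust trended prior, and 0 under the other 11 alternatives. The count of 1 companion gene was 0 with the replicate block, 0 to 1 with each array left out, 7 without genes below the median row and 7 with the trended prior. Hdac3 passed in those last 2 settings (-0.47 in both) and with array weights (-0.46). Class medians with each array left out ran from -0.062 to 0.013 for fibrillar, from 0.0011 to 0.089 for basement membrane and from -0.021 to 0.028 for other genes. Over all genes 95 were called, 617 without genes below the median row, 866 with the trended prior, 243 with array weights, 146 with quantile normalization, 0 with the replicate block and 2 to 25 with an array left out. Same-numbered arrays shared little (correlations of their deviations -0.0133, -0.086 and 0.04), so numbers were not taken as pairs. The cause of these shifts was not tested.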

Other observations

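The median start window of collagen genes was 59.8% G and C, beside 56.3% for protein-coding genes, and 23 of the 38 windows of 35 genes held a GGGCGG on either strand (60.5%, beside 46.2% of windows of protein-coding genes), 13 a CCAAT (34.2%, beside 38.2%) and 5 a TATAAA (13.2%, beside 12.6%). The TATAAA windows were those of Col3a1, Col10a1, Col11a2, Col13a1 and Col17a1. A match is a description of the letters, not of a bound site. Collagen genes with no protein-coding gene between them had these differences. Col4a1 and Col4a2 differed by 0.22 and 0.26, Col3a1 and Col5a2 by -0.17 and -0.045, Col9a1 and Col19a1 by -0.12 and -0.017, and Col4a5 and Col4a6 by -0.21 and 0.0054. Col4a3 and Col4a4 differed by 0.053 and -0.0054, Col6a1 and Col6a2 by 0.012 and -0.054, and Col6a4, Col6a5 and Col6a6 by 0.15, 0.042 and 0.15. A further array row (1 in all) carried the symbol Col6a1 together with other genes and was left out.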
